A study of Mus musculus with 6 samples.

Results

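The genes of natural killer (NK) cells and of cytotoxic killing were examined in the whole blood of mice housed in an enriched environment (EE) or a standard environment (SE). The 10 genes are the receptors Ncr1, Klrb1c, Klrd1 and Klrg1, the granule proteins Gzma, Gzmb, Prf1 and Nkg7, and the transcription factors Tbx21 and Eomes. They were chosen by name, and each is represented by 1 probe set annotated with that gene alone, which gave 10 probe sets of the 41345 on the array and 10 of the 22180 genes with a probe set of their own. A probe set shared by Klrb1a and Klrb1c and another shared by Prf1 and the mitochondrial COX2 were assigned to none of these genes. EE comprised 3 mice and SE 3 mice, all male CD1 animals of 9 weeks by the sample labels, kept for 2 weeks in their enclosure and given no inflammatory insult. CD1 is an outbred stock, so the mice of a group differ in their genes. Blood was taken by cardiac puncture and each mouse had its own Affymetrix whole-transcript array. The mice were housed in groups, and which of them shared an enclosure is not given in the sources used here.

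NK cells are innate lymphocytes that kill infected or transformed cells without prior sensitization, and CD8 T cells use the same killing machinery once activated. An NK cell weighs signals from activating and inhibitory receptors, then releases granules in which perforin opens a way through the membrane of the target and granzymes, a family of serine proteases, start its death. The T-box factors T-bet and Eomes direct the maturation of these cells and the expression of their effector genes. In blood NK cells are a minority among leukocytes, and whole blood RNA carries their transcripts together with those of red cells, platelets and all other leukocytes. In such a mixture fewer cells of a type and less RNA per cell cannot be told apart. Of the 10 genes 5 had a mean of 100 or more on the linear scale (log2 6.64), the minimum in the methods of the study, namely Ncr1, Klrd1, Prf1, Nkg7 and Tbx21, while Klrb1c, Klrg1, Gzma and Gzmb were under it in every mouse.

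None of the 10 genes differed between EE and SE mice beyond the spread between mice. The log2 fold change, the mean of EE minus the mean of SE, lay between -0.13 for Klrb1c and 0.39 for Nkg7. It was positive for 9 genes and negative for 1, and over the array it was positive for 20002 of 41345 probe sets. Without EE mouse 3 it was positive for 4 of the 10 genes, and without SE mouse 3 also for 4. By limma, fitted to all 41345 probe sets at once, 0 of the 10 were higher and 0 were lower at an unadjusted p under 0.05, against 1.45% of all probe sets higher and 2.3% lower. After adjustment over all probe sets, 0 of the 10 and 0% of the whole array passed by limma, where 1548 probe sets had an unadjusted p under 0.05, and the adjusted p of each of the 10 was 0.9999. EE and SE values overlapped for all 10, whereas the 3 EE values were all above the 3 SE values in 3.76% of the probe sets of the array and all below them in 4.61%. The median log2 fold change was 0.14 over the 10 genes and -0.0063 over all probe sets. It was -0.13 without EE mouse 3 and -0.10 without SE mouse 3.

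**Figure D1:**
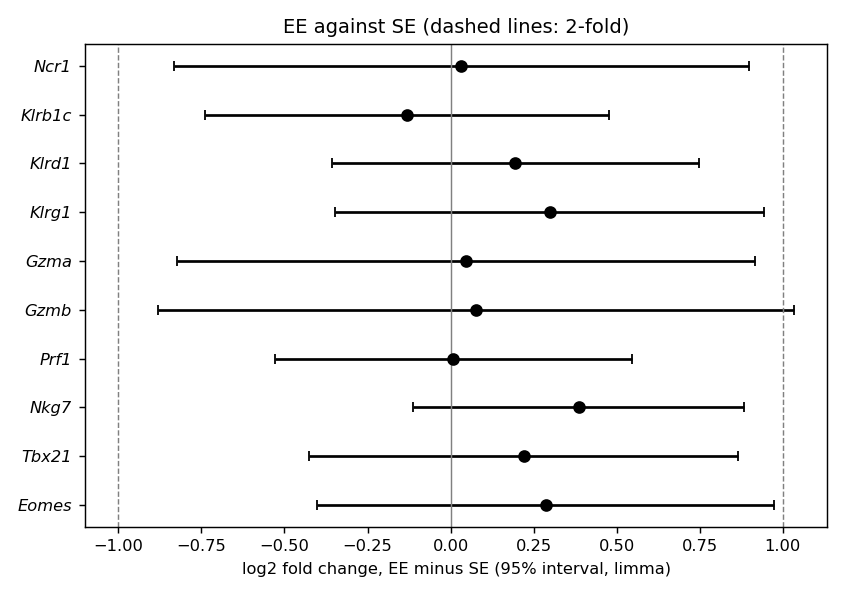
Log2 fold change of EE over SE mice for each gene with its 95% interval from limma (3 mice per group), with dashed lines at a 2-fold difference. All 10 intervals include 0, and the interval of Gzmb alone crosses a dashed line.

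For 9 of the 10 genes the 95% interval from limma lay within a 2-fold difference in either direction. The exception was Gzmb, with a fold of 1.05 for EE over SE and an interval of 0.543 to 2.05. Nkg7 had a fold of 1.31 (interval 0.925 to 1.85) and Prf1 one of 1.01 (interval 0.693 to 1.46).

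The activating receptor NKp46, encoded by Ncr1, is among the most selective markers of NK cells in the mouse. Ncr1 lay at log2 values of 6.87, 6.68 and 7.62 in EE mice 1, 2 and 3, against 7.38, 7.42 and 6.28 in SE mice 1, 2 and 3. The highest value was that of EE mouse 3 and the lowest that of SE mouse 3, with the other EE mice below the other SE mice. The means were 7.06 ± 0.50 in EE and 7.03 ± 0.65 in SE (SD, n = 3 each), and the log2 fold change was 0.03 (standard error 0.37, 95% interval -0.83 to 0.90). Klrb1c encodes NK1.1, an activating lectin-like receptor whose epitope is present in some mouse strains and absent from others. Its probe set lay at 4.09, 4.36 and 4.85 in EE mice and 5.0, 4.44 and 4.25 in SE mice. EE mouse 3 was again the highest of its group and SE mouse 3 the lowest of its own, but the extremes over both groups were SE mouse 1 and EE mouse 1. This was the only one of the 10 genes with a negative log2 fold change, -0.13 (standard error 0.26, 95% interval -0.74 to 0.48).

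Klrd1 encodes CD94, which pairs with NKG2 receptors to read a nonclassical MHC class I molecule. Klrd1 lay at 7.67, 7.63 and 7.40 in EE mice and 7.66, 7.63 and 6.83 in SE mice. Only SE mouse 3 stood off from the rest, and EE mouse 3 was the lowest EE mouse rather than the highest. The log2 fold change was 0.19 (standard error 0.23, 95% interval -0.36 to 0.75). Klrg1, an inhibitory receptor of mature NK cells and of effector CD8 T cells, lay at 5.55, 5.16 and 6.04 in EE mice and 5.71, 5.20 and 4.95 in SE mice. Here EE mouse 3 was again the highest and SE mouse 3 the lowest, and the log2 fold change was 0.30 (standard error 0.27, 95% interval -0.35 to 0.94).

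For each of the 4 granule proteins the values of EE and SE mice overlapped. Gzma encodes granzyme A, a protease that cleaves after basic residues, and lay at 5.43, 5.07 and 6.21 in EE mice and 5.82, 5.89 and 4.86 in SE mice. Gzmb encodes granzyme B, which cleaves after aspartate and activates caspases, and lay at 4.81, 4.55 and 6.02 in EE mice and 5.50, 5.07 and 4.58 in SE mice. Gzmb had the widest range of the 10 genes, 1.47 on the log2 scale or 2.77-fold between EE mouse 3 and EE mouse 2, so that both extremes lay within the EE group. The means of Gzmb were 5.13 ± 0.79 in EE and 5.05 ± 0.46 in SE (SD, n = 3 each), and the log2 fold change was 0.08 (standard error 0.41, 95% interval -0.88 to 1.03). For Gzma the log2 fold change was 0.05 (standard error 0.37, 95% interval -0.82 to 0.92).

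Prf1, which encodes perforin, lay at 7.55, 7.10 and 7.93 in EE mice and 7.71, 7.58 and 7.27 in SE mice. As for Gzmb, the highest value was that of EE mouse 3 and the lowest that of EE mouse 2. Its means were 7.53 ± 0.42 in EE and 7.52 ± 0.23 in SE (SD, n = 3 each), the smallest difference of the 10 genes, and the log2 fold change was 0.01 (standard error 0.23, 95% interval -0.53 to 0.55). Nkg7 encodes a granule membrane protein of NK cells and cytotoxic T cells that is needed for efficient degranulation. It lay at 9.27, 9.25 and 9.68 in EE mice and 9.26, 9.18 and 8.60 in SE mice. SE mouse 1 lay above EE mouse 2, so the groups overlapped narrowly. The means were 9.40 ± 0.24 in EE and 9.02 ± 0.36 in SE (SD, n = 3 each), and the log2 fold change, the largest of the 10, was 0.39 (standard error 0.21, 95% interval -0.11 to 0.88).

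Tbx21, which encodes T-bet, lay at 6.99, 6.70 and 7.73 in EE mice and 7.02, 7.12 and 6.62 in SE mice. EE mouse 3 lay above the 5 other mice, which were between 6.62 and 7.12. The log2 fold change was 0.22 (standard error 0.27, 95% interval -0.43 to 0.87). Eomes, whose product shares the DNA-binding T-box of T-bet, lay at 6.31, 6.17 and 7.02 in EE mice and 6.37, 6.56 and 5.71 in SE mice. It was at 100 or more on the linear scale in EE mouse 3 alone, and SE mouse 3 was the lowest. The log2 fold change was 0.29 (standard error 0.29, 95% interval -0.40 to 0.97).

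**Figure D2:**
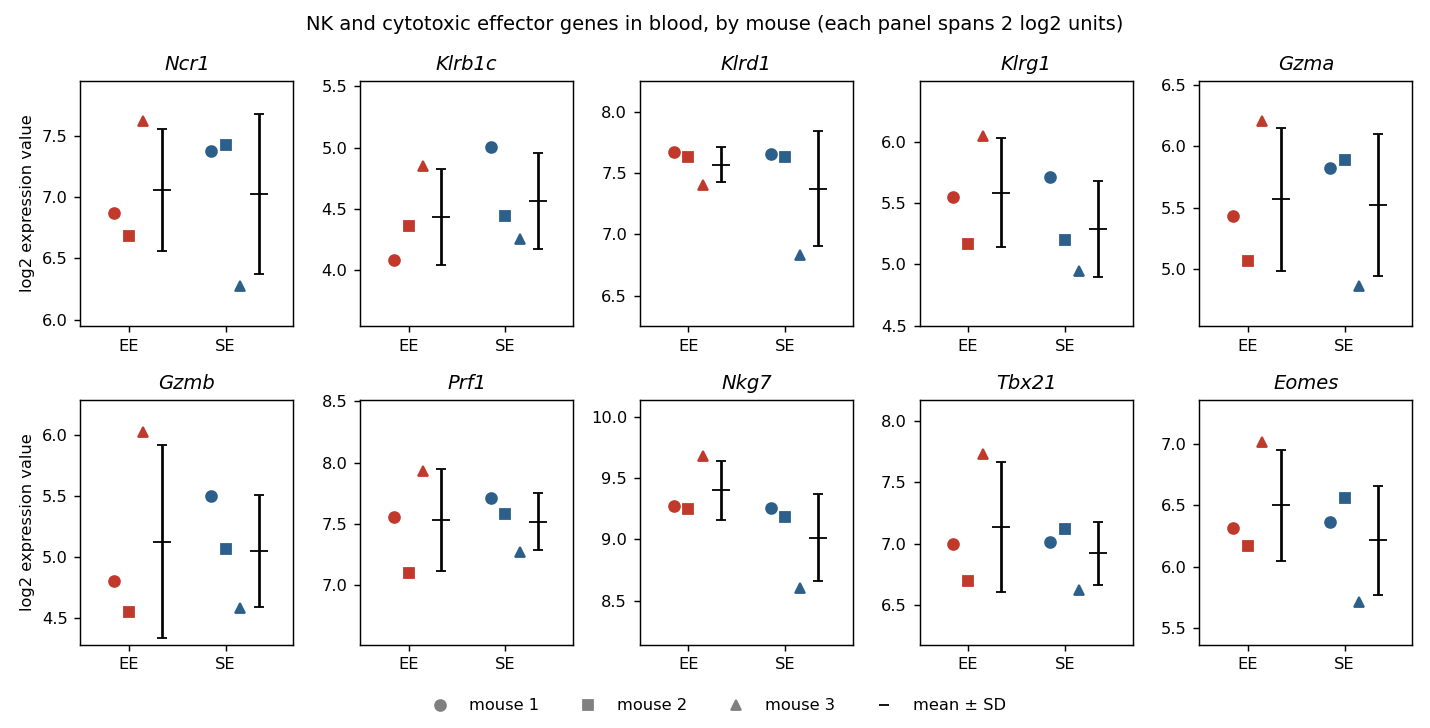
Log2 expression value of each gene in each mouse, EE in red and SE in blue, with the mean and SD of the 3 mice of a group beside them. Panels have their own axes of equal height, and EE mouse 3 (red triangle) is the highest mouse in 8 of 10 panels and SE mouse 3 (blue triangle) the lowest in 7 of 10.

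Most of the 10 genes shared an order of mice that did not follow the housing. EE mouse 3 was the highest mouse for 8 genes and SE mouse 3 the lowest for 7, while over all probe sets EE mouse 3 was the highest in 27.7% and SE mouse 3 the lowest in 13.5%. Among probe sets with a mean of 100 or more these shares were 14.1% and 15.7%. The exceptions at the top were Klrd1, highest in EE mouse 1, and Klrb1c, highest in SE mouse 1. At the bottom they were Gzmb and Prf1, lowest in EE mouse 2, and Klrb1c, lowest in EE mouse 1. Each log2 value was also set against the SE mean of its gene, and by the median of these differences over the 10 genes EE mice 1, 2 and 3 lay at 0.05, -0.21 and 0.68 and SE mice 1, 2 and 3 at 0.29, 0.18 and -0.44. EE mouse 3 exceeded the mean of EE mice 1 and 2 by 1.34 for Gzmb, 0.96 for Gzma, 0.88 for Tbx21 and 0.84 for Ncr1, with a median of 0.73 over the 10, and lay 0.25 below it for Klrd1. SE mouse 3 lay below the mean of SE mice 1 and 2 in all 10, by 1.13 for Ncr1 and 1.00 for Gzma. Each group thus held 1 of the extreme mice, and the SD within a group had a median over the 10 genes of 0.447 in EE and 0.418 in SE. Over all probe sets it was 0.188 in EE and 0.150 in SE, and over those with a mean of 100 or more 0.242 and 0.153. The median ratio of the EE SD to the SE SD was 1.01 over the 10 genes, 1.23 over all probe sets and 1.52 over those with a mean of 100 or more.

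Leaving out either of these mice turned the sign of several genes. Without EE mouse 3, 4 of the 10 genes were higher in EE mice, and the log2 fold change was -0.37 for Gzmb, -0.27 for Gzma, -0.25 for Ncr1, -0.19 for Prf1 and -0.07 for Tbx21. Without SE mouse 3, 4 of the 10 were higher, and it was -0.34 for Ncr1, -0.29 for Gzma, -0.16 for Gzmb, -0.12 for Prf1 and -0.08 for Klrd1. Nkg7, Klrg1 and Eomes kept a positive sign whichever of the 6 mice was left out. None of the 10 passed an unadjusted p of 0.05 from limma in any of these 6 fits.

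**Figure D3:**
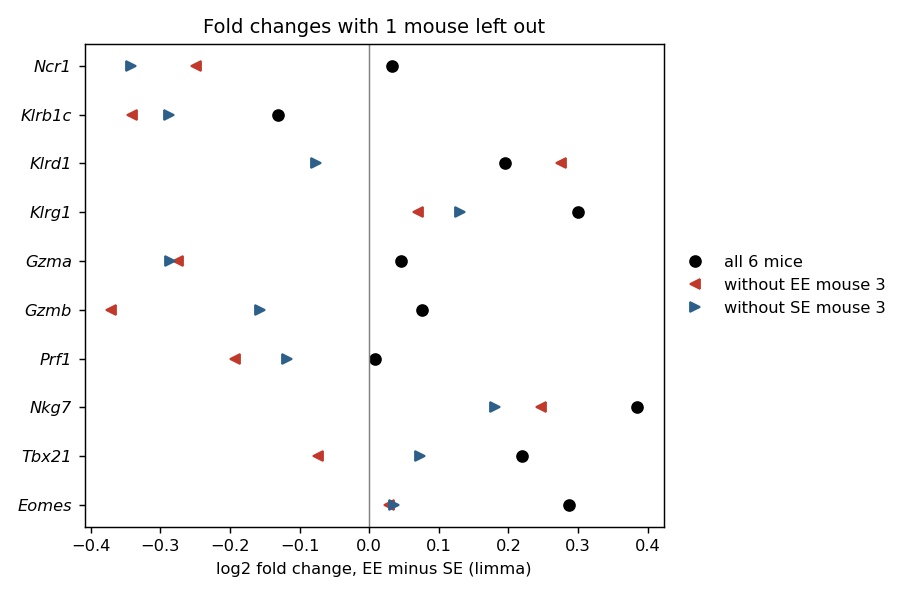
Log2 fold change of EE over SE mice for each gene with all 6 mice (black circles), without EE mouse 3 (red) and without SE mouse 3 (blue). The estimates for Ncr1, Gzma, Gzmb and Prf1 lie on the other side of 0 when either mouse is left out.

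The order of mice was set beside that of markers for the other cells of blood. T cell markers went the other way in EE mouse 3. Of 10 such genes, EE mouse 3 was lowest for 8 and highest for 0, with a median 0.82 below EE mice 1 and 2, and Cd3e lay at 11.09, 11.09 and 9.97 in EE mice and 10.78, 10.43 and 10.68 in SE mice. B cell markers were lowest in this mouse for 9 of 9, with a median 0.89 below EE mice 1 and 2. Cd79b lay at 12.09, 12.14 and 11.26 in EE mice and 11.58, 12.07 and 12.07 in SE mice. Over all probe sets EE mouse 3 was the lowest in 24.6%. Among those with a mean of 100 or more, where all these T and B cell genes lay, it was the lowest in 47.3%. The CD8 genes Cd8a and Cd8b1 lay at 7.58 and 8.50 in EE mouse 3, below EE mice 1 and 2 and within the range of the SE mice. EE mouse 3 was highest for 4 of 7 platelet genes and 5 of 6 monocyte genes, and SE mouse 3 was lowest for 7 of 7 and 6 of 6. For neutrophil markers SE mouse 3 was lowest for 8 of 11, and EE mouse 3 was highest for 0. The same array, that of EE mouse 3, had 8255 probe sets that reached the linear minimum of 100, against 9165 and 9336 on the arrays of the other EE mice and 9027 to 9065 on those of the SE mice. The part of any of these differences in the values of the cytotoxic genes was not tested.

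**Figure D4:**
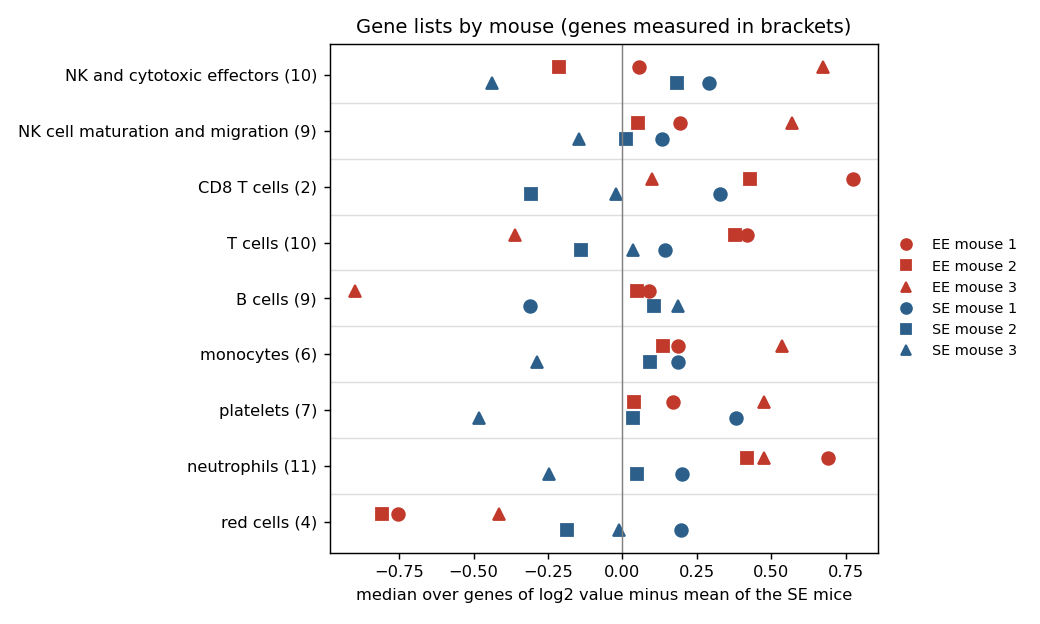
For each gene list and mouse, the median over its genes of the difference in log2 value from the SE mean, EE in red above SE in blue. EE mouse 3 (red triangle) is at 0.68 for the NK and cytotoxic genes, at -0.36 for T cells and at -0.90 for B cells.

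In the comparison of housing groups, 7 of 11 neutrophil genes were higher and 4 of 4 red cell genes lower in EE mice (limma, unadjusted p under 0.05). The medians of the log2 fold changes over these lists were 0.61 and -0.73. The 7 include S100a8 and S100a9, which the study had picked out from these same arrays, while Ltf, Camp, Ngp and Retnlg did not pass. The study also reported S100a8 and S100a9 as higher in EE mice by RT-PCR and at the protein level. Where a gene of a list had several probe sets, the one highest on average stood for it, and 1.24% of all 22180 genes so represented were higher and 1.51% lower. For neutrophils the count was 5 to 8 and for red cells 3 to 4 when 1 mouse was left out. Of 10 T cell genes 1 was higher, Thy1, a surface glycoprotein of T cells. With 1 mouse left out, 6 of the 10 were higher without EE mouse 3, 1 without SE mouse 3 and 0 without any one of the other mice. Over all 22180 genes, 555 were higher without EE mouse 3, against 274 with all 6 mice. Of all 41345 probe sets, 2637 passed in either direction without EE mouse 3, and 1330 to 1578 without any one of the other mice. Both CD8 genes had positive log2 fold changes, 0.45 for Cd8a and 0.42 for Cd8b1 (standard errors 0.22 and 0.24), and with 1 mouse left out both passed when that mouse was EE mouse 3 or SE mouse 1 and neither passed otherwise. No B cell, platelet or monocyte gene passed with all 6 mice. The same was true of the genes of basophils and mast cells, plasmacytoid dendritic cells and innate lymphoid cells with the IL-7 receptor. RMA gives all arrays nearly the same distribution of values, so the levels are relative to the rest of the blood RNA.

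Of the other genes of NK cell recognition and killing, written in 10 lists by role, 95 of 111 had a probe set of their own, and 2 were higher and 0 lower (limma, unadjusted p under 0.05). None had an adjusted p under 0.05. Their median log2 fold change was 0.09, against -0.0013 over all genes. With 1 mouse left out, 1 to 4 were higher, and 2 were lower without EE mouse 2 and 1 without SE mouse 3. One of the higher genes was Tyrobp, whose product DAP12 couples activating receptors of NK cells and of myeloid cells to their kinases. Tyrobp lay at 10.06, 10.14 and 10.08 in EE mice and 9.62, 9.80 and 9.60 in SE mice, with no overlap. Its log2 fold change was 0.42 (standard error 0.11, adjusted p = 0.9999 from limma), and it passed the unadjusted threshold under every alternative tried. The other was Itgam, the integrin CD11b of mature NK cells, neutrophils and monocytes, at a log2 fold change of 0.51 (standard error 0.21, adjusted p = 0.9999 from limma). Its EE values of 8.71, 8.45 and 8.85 overlapped its SE values of 8.26, 8.48 and 7.75, and it missed the unadjusted threshold when EE mouse 1, EE mouse 3, SE mouse 1 or SE mouse 3 was left out. Both genes are also expressed by neutrophils, of whose 11 markers 7 were higher in EE mice, and the part of neutrophils in their values was not tested.

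Among the receptors, 0 of 9 activating, 0 of 7 inhibitory and 0 of 6 Ly49 genes passed in either direction. Klrc1 encodes NKG2A, the inhibitory partner of CD94, and had a log2 difference of 0.40 between EE and SE (standard error 0.22), while Klri1, an inhibitory lectin-like receptor, had one of 0.26 (standard error 0.15). Among the activating receptors the smallest p values were those of Klrb1f, with -0.22 (standard error 0.15), and of the IgG receptor gene Fcgr3, with 0.22 (standard error 0.15). The Ly49 genes encode receptors for MHC class I that lie in a cluster of close copies, and 7 of the 13 had no probe set of their own. The log2 fold change was 0.45 for Klra17 (standard error 0.20) and 0.46 for Klra2 (standard error 0.25). Whether their probes also bind transcripts of other copies was not tested. Which blood cells carried the transcripts of these 2 genes, NK cells or others, was not tested either.

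Of 12 other granzymes and granule contents, 0 passed. The log2 fold change was 0.31 for Ctsw (standard error 0.20), a cathepsin of NK cells and CD8 T cells, and 0.19 for Serpinb9 (standard error 0.13), an inhibitor of granzyme B. Of 11 genes for granule transport and release, 0 passed, and Stxbp2, which binds the syntaxin of granule fusion, was at 0.17 on the log2 scale (standard error 0.10). In this list EE mouse 3 was lowest for 6 genes and highest for 2. Among all probe sets with a mean of 100 or more, as 10 of these 11 genes had, it was lowest in 47.3% and highest in 14.1%. Of 10 death ligands and secreted cytokines, 0 passed and EE mouse 3 was highest for 6. Of these 10 genes 2 had a mean of 100 or more, and over all probe sets EE mouse 3 was highest in 27.7%. For the chemokine genes Ccl3 and Ccl4 the log2 fold change was 0.52 and 0.18 (standard errors 0.24 and 0.15). No gene passed among 12 further transcription factors or 10 genes of cytokine receptors and their signalling. The smallest p values there were those of Klf2, a regulator of lymphocyte trafficking, at 0.24 (standard error 0.15), and Id2, an inhibitor of E proteins needed for NK cell development, at 0.35 (standard error 0.24), and those of Il18rap, a subunit of the IL-18 receptor, at 0.36 (standard error 0.19), and the signal transducer Stat5a, at 0.17 (standard error 0.14).

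The promoters of these genes were read for 2 short motifs of the factors that act on them. Of the 10 genes, 8 had a RefSeq promoter in the table used, running from 250 bases before to 50 after an annotated start site. The core TGTGGT or, on the other strand, ACCACA, bound by RUNX factors, was present in 6 of 8 genes, Ncr1, Klrb1c, Gzma, Gzmb, Prf1 and Nkg7, and in neither T-box gene. Over all genes with a promoter of this length it was present in 18.9%. The letters AGGTGT or, on the other strand, ACACCT, part of the site bound by T-box factors, were present in 3 of 8, Gzma, Prf1 and Nkg7, against 15.7% of all genes. Runx3, the RUNX factor listed for cytotoxic lymphocytes, lay at 7.72, 7.67 and 7.41 in EE mice and 7.74, 7.50 and 7.10 in SE mice, and EE mouse 3 was not its highest mouse. A match is a string of letters and was not tested as a binding site. Tbx21 and Eomes, also highest in EE mouse 3, hold neither motif, while Klrb1c, highest in SE mouse 1, holds the RUNX motif. A link between the motifs and the order of mice was not tested. The promoters of 5 genes with a match that were all highest in EE mouse 3 are printed 5′ to 3′ in the direction of the gene, with both motifs in capitals. The 2 motifs do not overlap in these promoters.

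In Ncr1 there is no T-box motif, and the RUNX motif begins 176 bases before the start site, and on the other strand 41 bases before it.
Ncr1 (GRCm38.p6, chr7:4337465-4337764, plus strand): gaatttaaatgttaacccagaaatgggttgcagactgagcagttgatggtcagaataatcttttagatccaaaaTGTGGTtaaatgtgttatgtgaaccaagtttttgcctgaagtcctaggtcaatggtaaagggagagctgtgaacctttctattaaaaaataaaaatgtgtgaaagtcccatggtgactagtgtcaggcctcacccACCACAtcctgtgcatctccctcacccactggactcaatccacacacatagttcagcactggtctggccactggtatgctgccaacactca

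In Gzma both motifs are on the other strand, the T-box motif 80 bases and the RUNX motif 50 bases before the start site.
Gzma (GRCm38.p6, chr13:113100932-113101231, minus strand): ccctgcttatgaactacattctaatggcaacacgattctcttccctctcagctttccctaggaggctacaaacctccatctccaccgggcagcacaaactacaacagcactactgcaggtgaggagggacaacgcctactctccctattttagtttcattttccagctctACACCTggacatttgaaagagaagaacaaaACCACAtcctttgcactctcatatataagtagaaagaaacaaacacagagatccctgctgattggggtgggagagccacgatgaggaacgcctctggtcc

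In Gzmb there is no T-box motif, and the RUNX motif begins 93 and again 34 bases before the start site.
Gzmb (GRCm38.p6, chr14:56262285-56262584, minus strand): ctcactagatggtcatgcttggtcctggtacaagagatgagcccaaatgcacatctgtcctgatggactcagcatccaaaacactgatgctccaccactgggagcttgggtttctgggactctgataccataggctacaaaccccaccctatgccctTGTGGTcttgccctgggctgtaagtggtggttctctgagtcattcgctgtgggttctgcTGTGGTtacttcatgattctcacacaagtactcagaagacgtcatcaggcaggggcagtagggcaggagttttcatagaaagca

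In Prf1 the T-box motif begins 24 bases before the start site, and the RUNX motif lies on the other strand 130 bases before it.
Prf1 (GRCm38.p6, chr10:61297586-61297885, plus strand): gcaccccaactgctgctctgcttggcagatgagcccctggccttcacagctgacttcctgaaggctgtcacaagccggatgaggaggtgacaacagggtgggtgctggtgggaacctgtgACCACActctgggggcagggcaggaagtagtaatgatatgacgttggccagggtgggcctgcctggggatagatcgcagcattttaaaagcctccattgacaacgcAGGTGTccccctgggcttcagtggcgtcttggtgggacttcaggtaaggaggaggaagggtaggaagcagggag

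In Nkg7 the T-box motif begins 14 bases before the start site, and the RUNX motif lies on the other strand 83 bases before it.
Nkg7 (GRCm38.p6, chr7:43436888-43437187, plus strand): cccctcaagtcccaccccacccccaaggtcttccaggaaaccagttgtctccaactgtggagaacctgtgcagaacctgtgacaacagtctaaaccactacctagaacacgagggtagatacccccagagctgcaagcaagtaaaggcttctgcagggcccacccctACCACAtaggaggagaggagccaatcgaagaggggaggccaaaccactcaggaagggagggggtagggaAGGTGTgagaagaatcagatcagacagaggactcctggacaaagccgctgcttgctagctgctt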

How the data were processed

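Whole blood RNA of 3 EE and 3 SE mice was measured on 6 arrays. The authors ran RMA (robust multiarray average) from affy and deposited log2 values for 41345 probe sets, which were used as deposited. Mouse Gene 1.0 ST is the array named in the methods, but the probe annotation supplied for the table is that of another Affymetrix platform and gave gene names here, with 23521 probe sets naming 1 gene. Scan dates, batches and a genome build are not given in the sources used here. The fit to all probe sets used lmFit and eBayes of limma 3.58.1 (R 4.3.3), with no covariate and no expression minimum, with Benjamini-Hochberg adjustment. The code was tested on simulated data. Genes named are the 10, those of each list at an unadjusted p under 0.05 or with the smallest p, and markers with the highest mean, while Runx3 was added after its values were seen. The members and lists were chosen with earlier results of these data known. Alternatives covered an expression minimum, array scaling, the variance model, array weights, a block for the mouse number, omission of each mouse and folds of linear means. Each gene has 1 probe set, so its summary could not vary. Promoters came from RefSeq (GRCm38.p6). Each limma p-value sets the difference between the group means against the spread of mice within groups, moderated over all probe sets. Spread between enclosures was not measured, and 3 arrays per group limit the precision.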

Additional observations from a re-analysis of the deposited data

How the results depend on the processing

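In all 13 alternative fits, none of the genes reached an unadjusted or adjusted p of 0.05 from limma, and 112 of 130 alternative values of single genes kept their direction. A minimum of 100 on the linear scale left 5 of the 10 genes. The median log2 fold change was -0.08 with array weights, in which EE mouse 3 had the lowest weight (0.308), and -0.13 to 0.33 with 1 mouse left out, so its sign is not settled. With array weights the log2 fold change was -0.19 for Ncr1, -0.21 for Gzma, -0.21 for Gzmb, -0.14 for Prf1 and -0.019 for Tbx21, each the reverse of the main sign. With 1 mouse left out it was -0.34 to 0.23 for Ncr1, -0.34 to 0.087 for Klrb1c, -0.077 to 0.33 for Klrd1, -0.29 to 0.30 for Gzma, -0.37 to 0.36 for Gzmb, -0.19 to 0.22 for Prf1 and -0.074 to 0.44 for Tbx21. The cause of these reversals was not tested. The sample labels number the mice but do not say whether the numbers pair them. Same-numbered mice had correlations of -0.087, -0.021 and -0.194 between their deviations from the group means, and differently numbered mice -0.134 to 0.167. With 3 mice per group these values cannot settle a pairing. With the number as a replicate block the median log2 fold change was 0.14. Itgam and Thy1 lost their unadjusted calls with the replicate block, with a trended and robust variance and with 100 required on 3 arrays, and Itgam also with array weights. The neutrophil gene Lcn2 lost its call with arrays centred on their medians, and the red cell gene Epb42 with a further quantile normalization. The linear minimum, array scaling and variance model left every sign as it was.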

Other observations

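EE mouse 3 was the highest and SE mouse 3 the lowest for 6 of the 10 effector genes, Ncr1, Klrg1, Gzma, Nkg7, Tbx21 and Eomes, for 18 of 95 further genes of the lists (18.9%) and for 5.25% of all genes with a probe set of their own, or 6.14% of those with a mean of 100 or more. Of the monocyte markers 5 of 6 had this same order at both ends, and of the platelet markers 4 of 7. Among 10 T cell, 9 B cell and 11 neutrophil markers, EE mouse 3 was the highest for 0. The genes named here were singled out after their values were seen, and these shares were not tested. Ccl5, a chemokine stored by effector lymphocytes and platelets, lay at log2 values of 10.48, 9.89 and 11.27 in EE mice 1, 2 and 3 and 10.27, 10.68 and 9.53 in SE mice 1, 2 and 3. Il2rb, the IL-2 and IL-15 receptor chain on which NK cells depend, lay at 8.02, 7.89 and 8.47 in EE mice and 8.17, 8.20 and 7.59 in SE mice. Klrk1, which encodes the activating receptor NKG2D, lay at 5.86, 5.88 and 6.68 in EE mice and 6.38, 6.39 and 5.64 in SE mice. Itga2, an integrin chain of NK cells and of platelets, lay at 8.69, 8.33 and 9.43 in EE mice and 9.05, 8.78 and 7.93 in SE mice. S1pr5, a receptor by which NK cells leave the bone marrow, lay at 7.78, 7.48 and 8.57 in EE mice and 8.17, 8.11 and 7.62 in SE mice, with EE mouse 2 as the lowest. Cd27, a marker of less mature NK cells that T cells also carry, lay at 7.82, 7.83 and 6.93 in EE mice and 7.67, 7.21 and 7.54 in SE mice, lowest in EE mouse 3.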
